A study of Mus musculus with 12 samples.

Results

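The genes described here are 5 sensors and regulators of nucleic acids in the cytosol, Ifih1, Ddx58 (also called Rigi), Dhx58, Zbp1 and Trex1. They were taken by name, through the accession that the array design gives each probe, and were found on 9 of 41174 probes, as 5 of 17305 named genes. Ddx58 had 4 probes, Ifih1 had 2 and the others had 1 each. The study measured RNA of mouse embryonic fibroblasts on 12 single-colour arrays. Its 4 groups of 3 samples were nonirradiated Atm-WT, irradiated Atm-WT, nonirradiated Atm-KO and irradiated Atm-KO. Atm encodes a kinase that signals DNA double-strand breaks, and the KO cells lack it by label. Irradiated cells received 4.32 Gy, and all cells were cultured for 72 h before RNA was prepared. The strain, the number of founder embryos, the passage and the form of the Atm allele are not given in the sources used here. The labels do not state whether the 3 samples of a group are separate cultures, so each p-value below reflects only the scatter among these samples, part of which may be technical.

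Cells read nucleic acids in the cytosol as a sign of infection or of damaged DNA. Ifih1 encodes MDA5 and Ddx58 encodes RIG-I, helicases that bind double-stranded RNA and signal through the adaptor Mavs to the kinase Tbk1, the factor Irf3 and type I interferon. Dhx58 encodes LGP2, a helicase of the same family that lacks the signalling domains and modulates the other two. Zbp1 binds nucleic acids in the left-handed Z form and can start cell death through Ripk3 and Mlkl. Trex1 is an exonuclease that degrades cytosolic DNA and so limits the DNA sensor Cgas. All 5 are known to be induced by interferon in many cell types.

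Values are log2 signal relative to the 75th percentile of each array, so that 0 is that percentile itself. They describe a probe across arrays, and levels of different probes were not compared. The 75th percentile itself ran from 379 to 757, between 55.3% and 64.5% of probes were well above background on each array, and no spot was saturated. Of all features (a named gene or an unnamed probe), 18430 passed a filter (signal well above background throughout at least 1 group) and were tested with limma. A gene counts as called at an adjusted p under 0.05 over all 18430. All 9 probes and all 5 genes passed this filter. The 10 fibroblast markers examined were well above background on all 12 arrays. The brightest Atm probe was well above background on 2 of 3 nonirradiated and 3 of 3 irradiated WT arrays, and on 0 of 3 nonirradiated and 1 of 3 irradiated KO arrays. It ranged from -5.65 to -2.87 on the 6 WT arrays and from -7.50 to -5.43 on the 6 KO arrays, where 5 of the 6 values were not well above background. The measured group means were -4.48 in WT and -6.21 in KO cells without irradiation (limma adjusted p = 0.476) and -4.02 and -6.55 with it (limma adjusted p = 0.225), so the genotypes were not called different. The other, dimmer Atm probe was well above background on replicates 1 and 3 of both WT groups and on no KO array. It ranged from -6.29 to -3.29 on the WT arrays and from -6.87 to -5.52 on the KO arrays. The positions of these probes relative to the deleted part of the gene were not found in the labels or files.

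**Figure D1:**
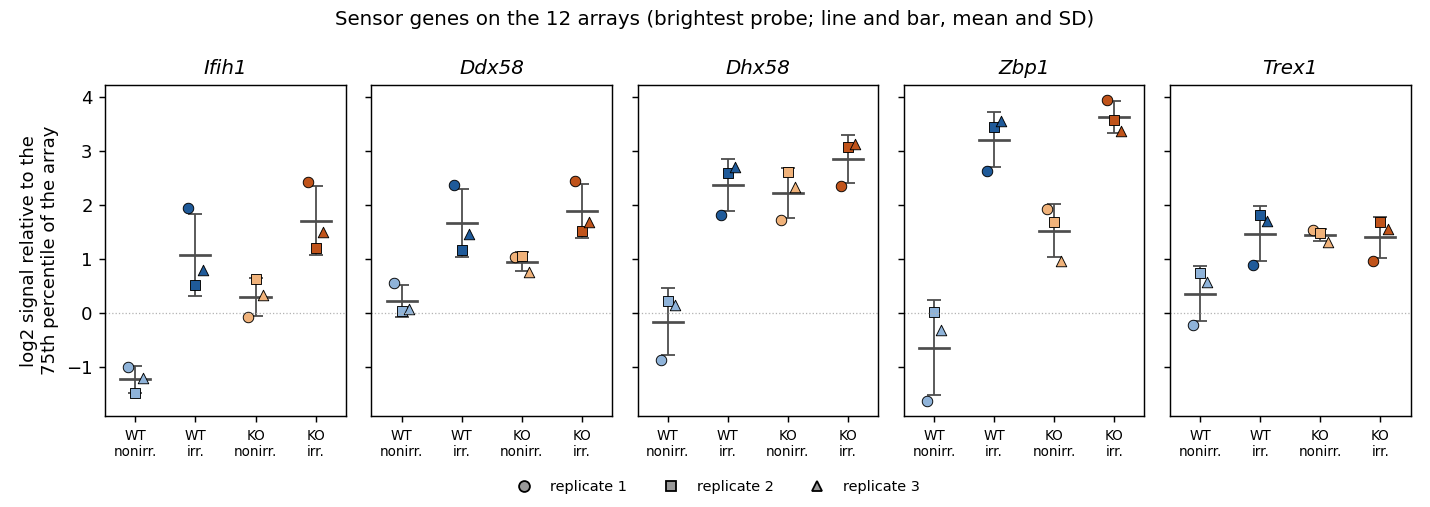
Signal of the brightest probe of Ifih1, Ddx58, Dhx58, Zbp1 and Trex1 on each of the 12 arrays, as log2 relative to the array's 75th percentile (y axis), by group (x axis; WT and KO, nonirradiated and irradiated); symbols mark the replicate number, lines the mean and bars the SD of 3 samples. Nonirradiated WT is the lowest group for every gene, and Zbp1 moves from a mean of -0.65 there to 3.21 after irradiation.

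In WT cells the sensors were higher after irradiation, with Zbp1 furthest apart. Zbp1 rose 14.4-fold, Dhx58 5.78-fold and Ifih1 4.95-fold. Ddx58 was 2.73-fold and Trex1 2.16-fold higher, and these 2 were not called without pairing of the samples. In all, 3 of 5 genes were called higher and 0 lower, where 0.423% of all features were called higher and 0.0217% lower. For all 5 genes, by the brightest probe, every irradiated WT value lay above every nonirradiated WT value, a pattern that 4.5% of features showed. The other probes of Ifih1 and Ddx58 gave the same order.

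For Zbp1 the 3 nonirradiated WT samples read -1.64, 0.02 and -0.32, and the irradiated samples read 2.63, 3.43 and 3.56. The groups were more than 2 log2 units apart at their nearest points. The difference was 3.85 ± 0.430, where ± is the standard error (limma adjusted p = 0.00132), rank 7 of 18430 features from the highest, and Zbp1 was called in each of the 12 fits that left out 1 array.

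Among the RNA helicases, Dhx58 read -0.88, 0.22 and 0.15 in nonirradiated WT cells and 1.81, 2.58 and 2.69 in irradiated WT cells. Its difference was 2.53 ± 0.384 (limma adjusted p = 0.00980). The bright Ifih1 probe read -1.001, -1.50 and -1.20 without irradiation and 1.93, 0.50 and 0.78 with it. Replicate 1 of the irradiated group stood above the other two, and the ranges did not meet. The Ifih1 difference was 2.31 ± 0.406 (limma adjusted p = 0.0270). The second, dimmer Ifih1 probe was not well above background on any nonirradiated WT array and was well above it on all 3 irradiated arrays. In a separate limma fit of all probes that passed the filter its adjusted p was 0.0328. The probe passed that filter only through the irradiated groups. It was at least 3.10-fold higher after irradiation (measured group means -6.03 and -3.87). That bound sets the mean of the bright group against the lowest signal that counts as above background on the dim arrays, or the probe's own value where that was higher. The Ifih1 call was lost without nonirradiated WT replicate 1, 2 or 3, without irradiated WT replicate 1 or 3, or without nonirradiated KO replicate 3, with adjusted p up to 0.128. The Dhx58 call was lost without irradiated WT replicate 2 (limma adjusted p = 0.0542) or 3 (0.0609). A fit on the WT arrays alone called 1 of the 5 genes, Zbp1, and 44 features in all, against 82 in the main fit.

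The 4 probes of Ddx58 gave like values. Its brightest probe read 0.55, 0.02 and 0.07 in nonirradiated WT cells and 2.36, 1.16 and 1.46 in irradiated WT cells. The difference was 1.45 ± 0.344 (limma adjusted p = 0.153), and the other 3 probes gave 1.096, 1.43 and 1.62. None of the 4 probes was called. Trex1, the exonuclease, read -0.23, 0.73 and 0.56 without irradiation and 0.87, 1.81 and 1.70 with it, a difference of 1.11 ± 0.333 (limma adjusted p = 0.341). Its lowest irradiated sample lay just above its highest nonirradiated sample.

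Same-numbered WT samples deviated together from their group means, with correlations across features of 0.852, 0.732 and 0.481, and the test was also run with the pair as a block. All 5 genes were then called higher, where 1.64% of features were. Ddx58 had an adjusted p of 0.0138 and Trex1 one of 0.0276 in that limma fit. The 3 Trex1 pairs differed by 1.101, 1.08 and 1.14, so the spread of Trex1 between samples was shared by the members of a pair. Replicates 1 and 2 of the WT groups were on 1 slide and replicate 3 on another, and the differences within the slides were close to each other for Zbp1 (3.84 and 3.87), Dhx58 (2.53 and 2.54) and Trex1 (1.09 and 1.14). Ddx58 gave 1.48 and 1.39, and Ifih1 gave 2.47 and 1.99. On every slide nonirradiated samples took array positions 1 and 3 and irradiated samples positions 2 and 4, and an effect of position cannot be told apart from one of irradiation.

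**Figure D2:**
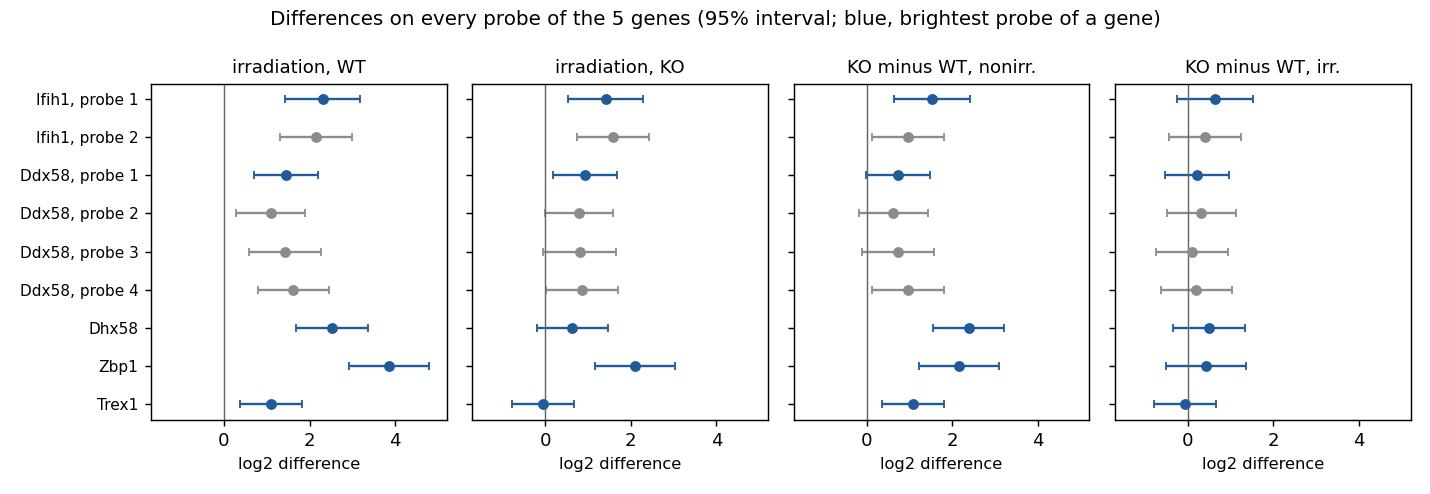
Log2 differences (x axis) on each of the 9 probes (y axis; numbered by brightness within a gene) for irradiation in WT and KO cells and for KO minus WT without and with irradiation; points are the limma estimates and bars their 95% intervals, blue for the brightest probe of a gene. The 4 Ddx58 probes lie between 1.096 and 1.62 for irradiation in WT cells, and Trex1 lies at -0.04 for irradiation in KO cells.

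Since these genes differed in the same direction in WT cells, their promoter windows were read from RefSeq (mouse build GRCm38.p6, 250 bases before to 50 bases after each transcript start). The array design names the build mm9, and no position below is taken from it. Windows were found for 3 of the 5 genes, Ifih1 and Ddx58 with 1 each and Trex1 with 2. Dhx58 and Zbp1 had no entry. The core of the interferon-stimulated response element was searched as GAAANNGAAA, and the core of the gamma-activated site as TTCNNNGAA, on both strands. Another pattern, GAAANGAAA, was added after the sequences had been read. The stretches that held a match are shown because both Ifih1 and Ddx58 carried the interferon-response core close to their start, with the matches in capitals and each read along the gene's own strand.
Ifih1: ggagaagagaatcGAAACAGAAAccgatct
Ddx58: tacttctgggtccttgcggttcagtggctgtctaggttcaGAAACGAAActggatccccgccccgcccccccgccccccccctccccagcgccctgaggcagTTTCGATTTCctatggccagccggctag

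The Ifih1 stretch is chr2:62646207-62646236 on the minus strand, all of it within the transcript, and its match begins at base 33 of the transcript. The Ddx58 stretch is chr4:40239796-40239925 on the minus strand, with 100 bases before the start and 30 from it. Its core match is on the opposite strand and begins at base 3 of the transcript, and GAAACGAAA begins 60 bases before the start. Neither Trex1 window held any of the 3 patterns, and no window of the 3 genes held TTCNNNGAA. Of 32841 windows of the same 300 bases, 3.44% held GAAANNGAAA, 8.3% held TTCNNNGAA and 3.17% held GAAANGAAA. A match of letters describes the sequence and was not tested as a site of binding.

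In KO cells Zbp1 and the RNA sensors Ifih1 and Ddx58 had the larger irradiation differences, and none of the 5 genes was called without pairing. Zbp1 was 4.29-fold higher, Ifih1 2.66-fold and Ddx58 1.91-fold, whereas Trex1 differed by -0.04. By limma 0 of 5 genes were called, where 0.00543% of features (1 feature) were called higher and none lower, and 1462 features had an unadjusted p under 0.05. Of the 5 genes, 3 had an unadjusted p under 0.05, and they were Zbp1, Ifih1 and Ddx58.

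Zbp1 read 1.91, 1.68 and 0.96 in nonirradiated KO cells and 3.94, 3.57 and 3.36 in irradiated KO cells. The ranges were far apart, and the difference was 2.10 ± 0.430 (limma adjusted p = 0.176). With the pair as a block it was called (limma adjusted p = 0.00894), the only one of the 5 to be so, where 1.18% of features were called higher. Same-numbered KO samples had correlations of their deviations of 0.510, 0.269 and 0.503. Differently numbered KO samples of replicates 2 and 3 gave 0.284 and 0.335. Both are above the 0.269 of replicate 2, so these values do not show that its samples form a pair. Ifih1 read -0.08, 0.63 and 0.32 without irradiation and 2.42, 1.19 and 1.49 with it, a difference of 1.41 ± 0.406 (limma adjusted p = 0.311). Its dimmer probe, well above background on 2 of 3 nonirradiated and 3 of 3 irradiated KO arrays, differed by 1.59. Ddx58 read 1.03, 1.06 and 0.75 without irradiation and 2.44, 1.52 and 1.67 with it, a difference of 0.93 ± 0.344 (limma adjusted p = 0.489). For Ifih1, Ddx58 and Zbp1 the irradiated range lay above the nonirradiated one, as for 6.7% of features. For Ifih1 the size came mostly from replicate 1, the pair on slide 2, with a difference of 2.50 against 0.87 over the pairs on slide 3.

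Dhx58 and Trex1 had the smaller irradiation differences in KO cells. Dhx58 read 1.71, 2.60 and 2.32 in nonirradiated KO cells and 2.34, 3.07 and 3.13 in irradiated KO cells, and the ranges overlapped. Its difference was 0.64 ± 0.384 (limma adjusted p = 0.768). Trex1 read 1.53, 1.47 and 1.32 without irradiation and 0.96, 1.68 and 1.55 with it. The irradiated Trex1 values lay on both sides of the nonirradiated ones, and the interval of its difference ran from -0.77 to 0.68. The sign of that difference turned without irradiated KO replicate 1, to 0.17, and without nonirradiated KO replicate 1, to 0.0016.

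Whether the irradiation difference itself depended on the genotype was asked with the difference of the differences. It was below 0 for all 5 genes, and none was called (0.00543% of features, 1 feature, were called lower, and 166 had an unadjusted p under 0.05). Dhx58 had the largest, at -1.90 ± 0.543 (interval -3.08 to -0.71, limma unadjusted p = 0.00441, adjusted p = 0.99992), rank 30 of 18430 from the lowest. With the pair as a block its limma adjusted p was 0.0701, where 0.0217% of features were called lower. Zbp1 followed at -1.75 ± 0.608 and Trex1 at -1.15 ± 0.471, with limma adjusted p of 0.211 and 0.688 under the block. Ifih1 at -0.89 ± 0.574 and Ddx58 at -0.51 ± 0.487 had intervals that included 0.

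**Figure D3:**
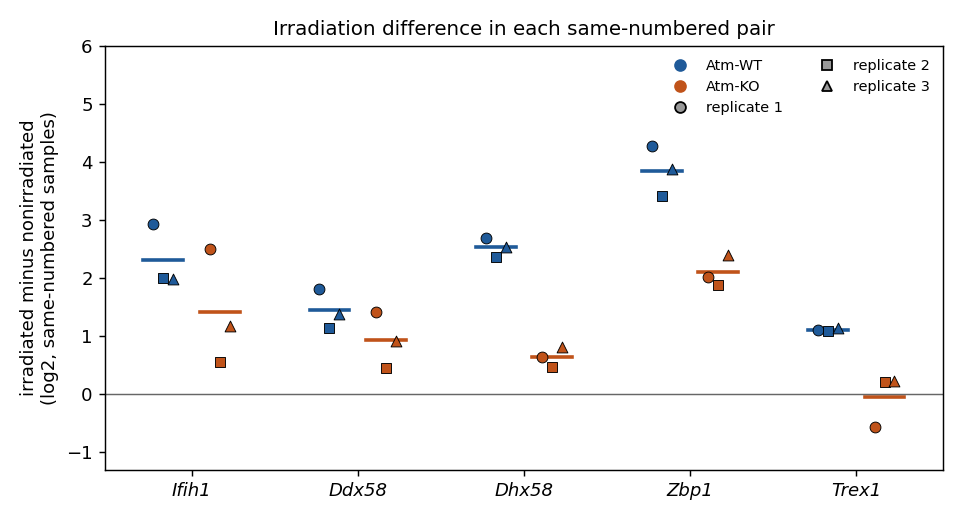
Irradiated minus nonirradiated log2 signal (y axis) in each same-numbered pair for the 5 genes (x axis), blue for WT and orange for KO; symbols mark the replicate number and bars the mean of 3 pairs. For Dhx58, Zbp1 and Trex1 every KO pair lies below every WT pair, and for Ifih1 and Ddx58 the pairs of the genotypes overlap.

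The mean of the pair differences equals the difference of the group means, so the pairs add only their spread. For Dhx58 the WT pairs differed by 2.69, 2.36 and 2.54 and the KO pairs by 0.63, 0.47 and 0.81. For Zbp1 they differed by 4.27, 3.41 and 3.87 in WT and by 2.03, 1.89 and 2.39 in KO. These ranges, and those of Trex1 (KO pairs -0.56, 0.21 and 0.23), did not overlap between genotypes, as for 4.31% of features with lower KO pairs. An exact two-sided permutation test gave p = 0.1 for each of these 3 genes, the smallest that 3 against 3 pairs allow. For Ifih1 (WT 2.93, 2.0004 and 1.99, KO 2.50, 0.56 and 1.17) and Ddx58 (WT 1.81, 1.14 and 1.39, KO 1.41, 0.46 and 0.92) the ranges overlapped, with exact permutation p = 0.3 for each.

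Without irradiation, the measured means of all 5 genes were higher in KO than in WT cells. Dhx58 was 5.22-fold and Zbp1 4.49-fold higher in KO cells, and both were called. Ifih1 was 2.88-fold, Trex1 2.12-fold and Ddx58 1.66-fold higher and were not called. Thus 2 of 5 genes were called higher, where 0.391% of features were. For all 5 genes, by the brightest probe, the nonirradiated KO values lay above the nonirradiated WT values, as for 8.29% of features. The other probes of Ifih1 and Ddx58 gave the same order.

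The Dhx58 difference was 2.38 ± 0.384 (limma adjusted p = 0.0107) and the Zbp1 difference 2.17 ± 0.430 (limma adjusted p = 0.0380). Ifih1 differed by 1.52 ± 0.406, Trex1 by 1.09 ± 0.333 and Ddx58 by 0.73 ± 0.344, with limma adjusted p of 0.163, 0.264 and 0.692. The other Ddx58 probes gave 0.62, 0.73 and 0.97, so its 4 probes again gave like values. The lone slide that held both genotypes gave, for 1 nonirradiated KO against 1 WT sample, 2.23 for Zbp1, 1.56 for Dhx58, 1.12 for Ifih1, 0.97 for Trex1 and 0.96 for Ddx58. The other slides held 1 genotype each, so slide and genotype can largely not be told apart in the main fit. With the slide as a term in the fit, 34 features were called, against 158 in the main fit. None of the 5 genes was among them, with Dhx58 at 1.56 (limma adjusted p = 0.383) and Zbp1 at 2.18 (limma adjusted p = 0.320). The Dhx58 call was lost without nonirradiated KO replicate 2 or 3. The Zbp1 call was lost in 9 of the 12 fits that left out 1 array: without nonirradiated WT replicate 1 or 3, nonirradiated KO replicate 1, 2 or 3, or replicate 2 or 3 of either irradiated group, with adjusted p from 0.0511 to 0.204. Without replicate 1 of every group all 5 genes were called, and so were 4.17% of features in the higher direction. All KO arrays that remained were then on 1 slide and the WT arrays on the other two, so slide and genotype cannot be told apart there.

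Markers of other cell types differed between the genotypes as well. Of 14 macrophage and blood cell markers 11 were tested. All 11 had lower means in nonirradiated KO than in WT cells, and 10 of them were called lower, where 0.467% of features were. Their summed level, in units of the 75th percentile, was 3.95 to 6.92 in nonirradiated WT, 2.99 to 4.73 in irradiated WT, 0.584 to 0.934 in nonirradiated KO and 0.676 to 0.835 in irradiated KO. In KO cells that level was low where the sensors were high. In WT cells 0 of the 11 were called after irradiation, and 10 had lower means. In KO cells 0 of the 11 were called after irradiation, and 5 had higher means. With the pair as a block 2 were called higher after irradiation in KO cells, where 1.18% of features were. These were C1qc at 1.17 (limma adjusted p = 0.0291) and Cd53 at 1.63 (limma adjusted p = 0.0189). Of the macrophage markers, C1qa, C1qc and Laptm5 were each not well above background on at least 2 nonirradiated KO arrays. Of 6 plasmacytoid dendritic cell markers 3 were tested; Bst2, itself an interferon-induced gene, was called higher, and the defining marker Siglech was well above background on 1 of 12 arrays. Of 5 endothelial markers 4 were tested and 1 was called, the adhesion molecule Cdh5, which was 3.10 ± 0.614 lower in nonirradiated KO cells (limma adjusted p = 0.0373) and well above background on 1 of those 3 arrays. Of the 10 fibroblast markers none was called, and the receptor Pdgfra differed by -1.17 ± 0.328 (limma adjusted p = 0.194). None of the 5 epithelial markers was called. The part of these cells in the genotype differences was not tested. In such bulk samples fewer cells of a type and less RNA per cell cannot be told apart.

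After irradiation none of the 5 genes was called between the genotypes. Ifih1 was higher in irradiated KO than in irradiated WT cells by 0.63 ± 0.406, Dhx58 by 0.49 ± 0.384, Zbp1 by 0.42 ± 0.430 and Ddx58 by 0.21 ± 0.344, and Trex1 differed by -0.06 ± 0.333. That left 0 of 5 called by limma, where 0.0597% of features were called higher and 0.147% lower, and 963 features had an unadjusted p under 0.05. None of the 5 was among those 963. The intervals reached 1.51 for Ifih1 and 1.35 for Zbp1, so differences of that size were not excluded by these data. The ranges of the groups overlapped on all 9 probes. Same-numbered irradiated samples of the genotypes had correlations of their deviations of 0.628, 0.616 and 0.218. Differently numbered ones of replicates 2 and 3 gave 0.341 and 0.387, above the 0.218 of replicate 3. The values therefore do not show that the replicate numbers pair the genotypes. Within these numbers KO minus WT was 0.53, 0.49 and 0.44 for Dhx58, 0.49, 0.69 and 0.71 for Ifih1 and 0.08, 0.35 and 0.21 for Ddx58, above 0 throughout, while Zbp1 (1.31, 0.14 and -0.20) and Trex1 (0.09, -0.13 and -0.16) gave both signs. With the replicate block 0 of 5 were called, where 0.304% of features were called higher and 0.456% lower, and Dhx58 had a limma unadjusted p of 0.0133 (adjusted p = 0.315). On the slide that held both genotypes the single irradiated samples gave -0.35 for Dhx58, -0.74 for Trex1 and 1.64 for Ifih1.

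The order of the 4 groups was the same for Ifih1, Ddx58, Dhx58 and Zbp1, from irradiated KO through irradiated WT and nonirradiated KO down to nonirradiated WT. The ranges of the irradiated groups overlapped for every gene. Nonirradiated KO cells stood 0.15 below irradiated WT cells for Dhx58, with overlapping ranges, and 1.69 below them for Zbp1, with separate ranges. For the bright probes the gap was 0.78 for Ifih1, with overlapping ranges, and 0.72 for Ddx58, with separate ones. Trex1 had 1.46 ± 0.512 (SD, n = 3) in irradiated WT, 1.44 ± 0.111 in nonirradiated KO and 1.40 ± 0.380 in irradiated KO cells, with overlapping ranges, and 0.35 ± 0.510 in nonirradiated WT cells. So the mean level of Dhx58 and Trex1 in nonirradiated KO cells was within the range of irradiated WT cells, and that of Zbp1 was between the WT levels without and with irradiation.

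The samples of a group also differed among themselves, and the 5 genes split into sets in how they did. With the group means removed, Ifih1 and Ddx58 had r = 0.907 over the 12 arrays, and Dhx58 and Trex1 had r = 0.835. Between the sets the sign was opposite, with r = -0.785 for Ddx58 and Dhx58, -0.890 for Ddx58 and Trex1 and -0.847 for Ifih1 and Trex1. Zbp1 went with Trex1 (0.686) more than with Ifih1 (-0.366). These values describe 12 arrays that share 3 slides and come in 6 pairs, and they carry no test.

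Replicate 1 was at one end of the group in many features, and these genes were no exception. Dhx58, 1 of the 5 genes, was lowest in replicate 1 in all 4 groups, as were 18% of features. Ifih1 and Ddx58 were highest in replicate 1 in 3 of 4 groups, as 27.3% of features were in at least 3, so nothing particular to the 5 genes is read from these counts. In irradiated WT cells, replicate 1 lay 1.29 above the mean of the other samples for Ifih1 and 0.83 below it for Dhx58. In irradiated KO cells the same values were 1.08 and -0.76. The irradiated replicate 1 arrays had the highest 75th percentiles of the series, 757 in WT and 708 in KO. With quantile normalization replicate 1 of the irradiated WT group still stood 1.48 above for Ifih1 and 0.57 below for Dhx58. Marker levels moved with replicate 1 as well. The summed level of the 5 epithelial markers, in units of the 75th percentile, was 1.76 and 2.33 in replicate 1 of nonirradiated and irradiated WT cells against 0.686 to 1.03 in the other WT samples, and 3.898 and 4.48 in replicate 1 of the KO groups against 0.489 to 0.917 in the others. The summed level of the 10 fibroblast markers was lowest in replicate 1 in each group, at 1245 to 1624 against 1635 to 2024 in the other samples. The parts of array brightness and of these cells in this split were not tested. Without replicate 1 of every group, all 5 genes were called higher after irradiation in WT cells, where 0.705% of features were, and Zbp1 differed by 3.64 ± 0.261.

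**Figure D4:**
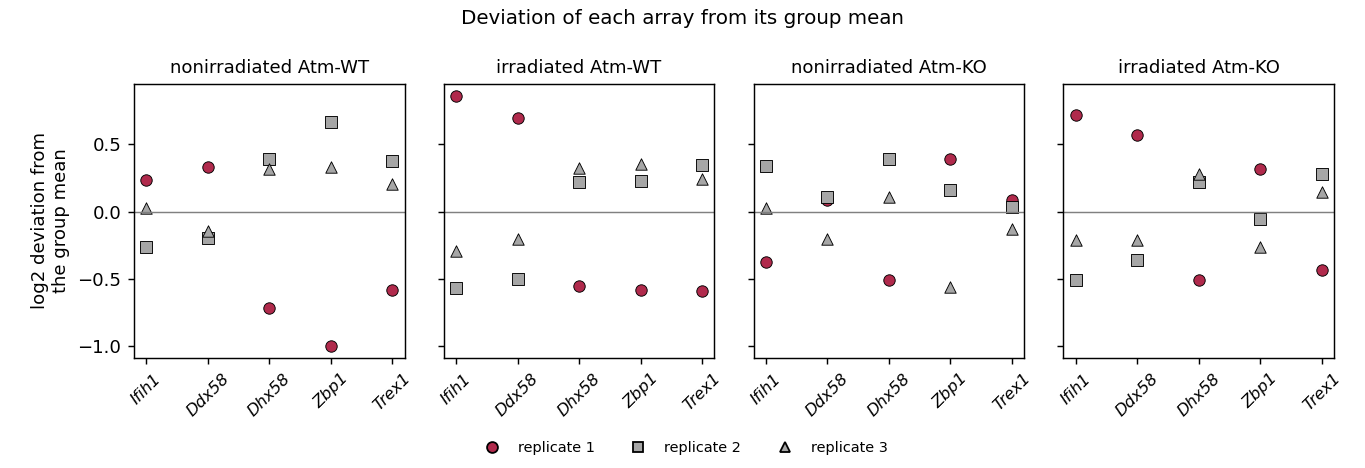
Deviation of each array from its group mean (y axis, log2) for the 5 genes (x axis) in each of the 4 groups; red circles are replicate 1 and grey symbols replicates 2 and 3. Replicate 1 lies above the mean for Ifih1 and Ddx58 and below it for Dhx58 in nonirradiated WT, irradiated WT and irradiated KO cells.

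Each gene had named companions with nearly the same profile over the 12 arrays, chosen as the 3 tested genes with the highest Pearson r. For Ifih1 these were Trim30d (0.992), Gbp3 (0.986) and Tgtp1 (0.984), and for Ddx58 they were Parp14 (0.984), Irgm1 (0.983) and Gbp7 (0.982). Gbp3, Gbp7, Irgm1 and Tgtp1 encode interferon-inducible GTPases. Dhx58 was closest to Tor3a (0.994), Apol9b (0.993) and Ly6e (0.990). Zbp1 was closest to Ube2l6 (0.974), which encodes an ISG15-conjugating enzyme, Slfn2 (0.973) and Irgm2 (0.965). Trex1 was closest to Ifi35 (0.974), the immunoproteasome subunit Psmb10 (0.959) and Rnf114 (0.956). These arrays share group, slide and pair, and the values carry no test. The companions were picked for likeness over these same arrays, so like group differences follow largely from that choice. Those of Trex1 differed after irradiation by 0.11, 0.14 and -0.02 in KO cells and by 1.35, 0.72 and 0.54 in WT cells. Those of Ifih1 differed after irradiation by 1.41 to 2.40 in KO cells.

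Among the other listed genes of the sensing pathways, 2 were called after irradiation in WT cells, Ifi204 and Irf7, both higher. In that comparison 0.423% of all features were called higher, and 1.64% with the pair as a block. For the genotype without irradiation 0.391% of features were called higher. Among 19 listed genes of DNA sensing and DNA clearance, 11 were tested and 1 was called higher after irradiation in WT cells, none lower. It was Ifi204, a DNA-binding protein of the HIN family. Ifi204 read 0.64, 0.89 and 1.64 in nonirradiated and 3.56, 3.10 and 3.19 in irradiated WT cells, a difference of 2.23 ± 0.340 (limma adjusted p = 0.00980). That call was lost without nonirradiated WT replicate 1 or 2. With the pair as a block a second gene of the HIN family, Ifi205, was called as well, at 2.13 ± 0.257 (limma adjusted p = 0.00368, against 0.258 without the block). Cgas, the sensor that Trex1 limits, differed by -0.03 ± 0.277, and Samhd1, a nucleotide hydrolase, by 0.60 ± 0.291. Atrip, which lies beside Trex1 in the genome, differed by 0.05 ± 0.308, while Trex1 differed by 1.11. Sting1 is not reported, since no probe was named for it here. The list's median was -0.03, and the median of all features was -0.02. In nonirradiated KO against WT cells none of the 11 was called, with a median of 0.21 against 0.04 over all features.

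Among 23 listed genes of RNA sensing and editing, 20 were tested and 0 were called for irradiation in WT cells or for the genotype without irradiation. With the pair as a block 2 of the 20 were called higher after irradiation in WT cells, where 1.64% of features were. They were Adar, which edits double-stranded RNA, at 1.39 ± 0.190 (limma adjusted p = 0.00676), and the antiviral protein Zc3hav1 at 1.16. Eif2ak2, the kinase that stops translation on double-stranded RNA, differed by 1.60 ± 0.537 (limma adjusted p = 0.464). Mavs, the adaptor of Ifih1 and Ddx58, differed by -0.09 ± 0.343. So the members of this list ranged from a value near 0 for the adaptor to values like that of Ddx58 for the antiviral effectors. Its median in WT cells after irradiation was 0.07.

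**Figure D5:**
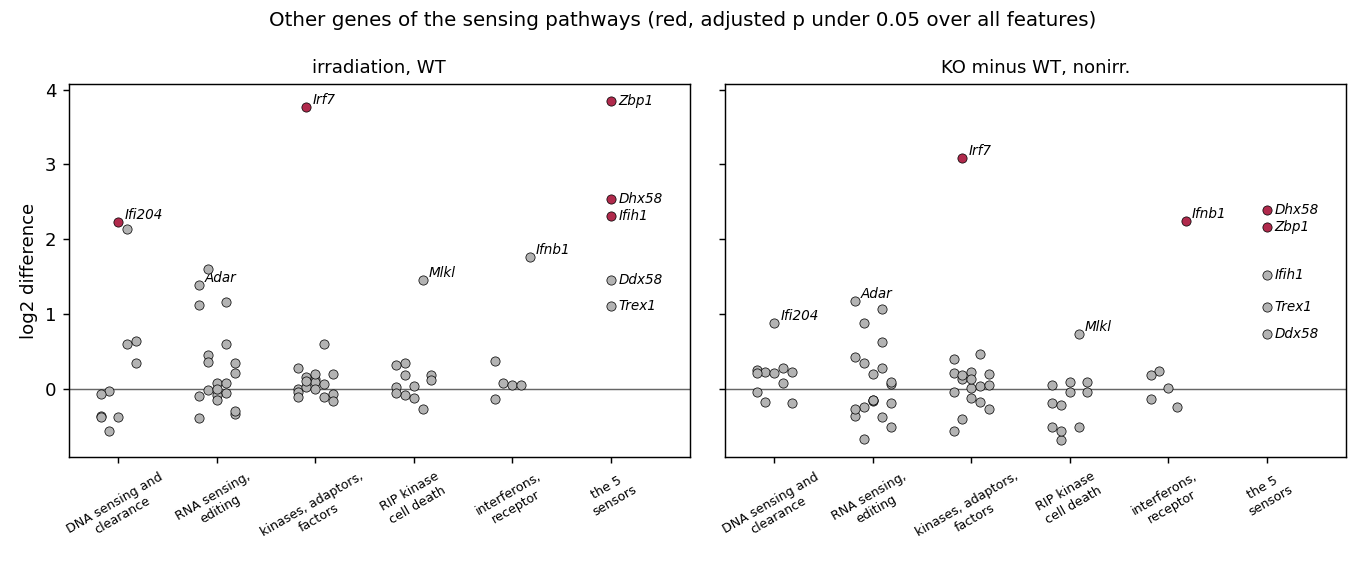
Log2 difference (y axis) of each tested gene of 5 pathway lists, with the 5 sensors at the right (x axis), for irradiation in WT cells and for KO minus WT without irradiation; red points have an adjusted p under 0.05 over all 18430 features. Irf7 lies at 3.77 and 3.08, and most other listed genes lie near 0.

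Of 19 listed kinases, adaptors and transcription factors 18 were tested, and 1 was called, Irf7, in both comparisons. Irf7, the interferon-induced factor that amplifies type I interferon, read -1.63, -0.33 and -0.52 in nonirradiated WT, 2.75, 2.95 and 3.13 in irradiated WT, 1.74, 2.61 and 2.40 in nonirradiated KO and 3.85, 4.18 and 4.41 in irradiated KO cells. It had the same order of groups as Zbp1. It rose by 3.77 ± 0.354 after irradiation in WT cells (limma adjusted p = 0.000607) and was 3.08 ± 0.354 higher in nonirradiated KO cells (limma adjusted p = 0.00110). The latter call was lost with the slide as a term in the fit, at 2.43 (limma adjusted p = 0.0856). Tbk1 and Irf3, which act between Mavs and interferon, differed by -0.04 ± 0.423 and -0.01 ± 0.386 after irradiation in WT cells. The medians of this list were 0.07 and 0.09 in the 2 comparisons.

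All 12 listed genes of the RIP kinase death pathway were tested and 0 were called in either comparison. Mlkl, the pore-forming protein of necroptosis, differed by 1.45 ± 0.332 after irradiation in WT cells (limma adjusted p = 0.124), and by the same amount at an adjusted p of 0.0299 with the pair as a block. Ripk3, the kinase between Zbp1 and Mlkl, differed by 0.31 ± 0.326. The medians were 0.07 for irradiation in WT cells and -0.12 for the genotype without irradiation.

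Of 20 listed type I interferons and receptor chains only 6 were tested. Ifnb1, which encodes interferon beta, was well above background on 0 of 3 nonirradiated WT, 1 of 3 irradiated WT, 1 of 3 nonirradiated KO and 3 of 3 irradiated KO arrays. It read -7.85, -7.07 and -7.51 in nonirradiated WT cells and -4.90, -5.13 and -5.69 in nonirradiated KO cells. Its fitted value was called higher in the latter (limma adjusted p = 0.0147, measured group means -7.48 and -5.24), with 5 of these 6 readings not well above background, and no fold is given. That direction turned with another background correction, to -0.43, so the signal of Ifnb1 near background did not settle it. For irradiation in WT cells its fitted value was called with the pair as a block (limma adjusted p = 0.0280, against 0.0918 without it), and that direction also turned with the other background correction, to -0.67. The Ifnb1 genotype call was also lost without nonirradiated WT replicate 1 or 3 or nonirradiated KO replicate 2. Ifnar1, a receptor chain, differed by 0.05 ± 0.261 after irradiation in WT cells. The medians of this list were 0.06 and 0.09.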

How the data were processed

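RNA of 12 samples was labelled with Cy3 and hybridised to Agilent design 014868. Per the file headers, the authors' deposited scanner files hold spot intensity from Feature Extraction 10.7.1.1; the submitters' processing notes name version 11.0. The series' value table, deposited by the authors on a log2 scale, followed the scanner values after scaling to the 75th percentile and centring on each probe's median (lowest r = 0.9975 over 41174 probes) and was used as an alternative.

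The main values were log2 processed signal minus each array's 75th percentile. Control and outlier spots were left out and spots of a probe averaged. A gene was represented by its brightest probe. The other probes of Ifih1 and Ddx58 were tested in a separate limma fit, with adjustment over all probes that passed the filter. Probes were named through their accession with RefSeq GRCm38.p6 tables (25097 of 41174 probes). A group-means model over all 12 arrays was fitted with limma 3.58.1 in R 4.3.3 (8 residual and 4.13 prior degrees of freedom), with Benjamini-Hochberg adjustment over 18430 features, and was tested on simulated data. The number of arrays limits the precision.

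The 5 genes, the pathway lists and the marker lists were chosen with earlier results of these data known. Named were the 5 genes, preset genes of each list, up to 4 further called genes of a list with the smallest adjusted p, the 3 most similar genes per member, and Atm. Ifi205, Zc3hav1, Bst2, Cdh5, Pdgfra, Siglech, C1qa, C1qc, Cd53 and Laptm5 were named after their values were seen. Same-numbered samples were treated as pairs in an alternative, since for irradiation, and for the genotype in irradiated cells, every pair's deviations had r above 0.1. Some differently numbered samples passed that mark too, with r up to 0.335 for irradiation and 0.387 for the genotype in irradiated cells. The labels do not state a pairing. Slides, each scanned once, were treated as batches. Other alternatives were normexp (offset 50), quantile normalization, no filter or a filter on all 12 arrays, the mean of all probes, fits on only the groups compared, leaving out each array, and leaving out replicate 1 of every group, which was chosen after seeing the data.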

Additional observations from a re-analysis of the deposited data

How the results depend on the processing

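With the replicate block, members called became 5 (irradiation in WT) and 1 (irradiation in KO), and features called became 417, 377, 4 (difference of differences), 315 (genotype without irradiation) and 140 (genotype with irradiation), against 82, 1, 1, 158 and 38. For the genotype without irradiation the numbers did not pair the samples (r = 0.18 at most), and that block left 2 members called. Normexp gave 44, 0, 0, 62 and 13 features. Quantile normalization gave 0 features for irradiation in KO, 2 for the difference, and 1 member for the genotype without irradiation. Without a filter, features were 0 for irradiation in KO, 0 for the difference, 103 and 20 for the genotype, and 1 member was called without irradiation. With the filter on all 12 arrays they were 0 for irradiation in KO, 87 and 15 for the genotype. The slide term gave 139 features for irradiation in WT, 0 for the difference, 34 and 3 for the genotype, and 0 members without irradiation. Fits on only the groups compared gave 1 member and 44 features for irradiation in WT, 0 features for irradiation in KO, 1 member for the genotype without irradiation and 23 features with it. Without replicate 1 of every group, 5 members and 167 features were called for irradiation in WT, 0 features for irradiation in KO and for the difference, 5 members and 1580 features for the genotype without irradiation, and 1044 features with it. The cause of these shifts was not tested, except that fewer features enter under the stricter filter and fewer arrays in the fits on fewer samples.

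Leaving out 1 array gave 1 to 3 members and 49 to 101 features for irradiation in WT, 0 members and 0 to 2 features in KO, 0 members and 0 to 1 features for the difference, 0 to 2 members and 57 to 225 features for the genotype without irradiation, and 0 members and 3 to 104 features with it.

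Zbp1 kept its call for irradiation in WT in all 22 alternatives (3.35 to 4.18), Dhx58 in 19 (2.17 to 2.81) and Ifih1 in 12 (1.84 to 2.59). For the genotype without irradiation Dhx58 kept its call in 19 of 22 (1.56 to 2.64) and Zbp1 in 9 (1.47 to 2.50). Signs turned among the 5 genes for the genotype with irradiation, for Dhx58 with the slide term (-0.34) and Zbp1 without replicate 1 of every group (-0.032). Trex1 turned for irradiation in KO without replicate 1 of every group (0.22). Leaving out 1 array gave -0.18 to 0.17 for Trex1 in that comparison, and -0.36 to 0.15 for Trex1 and -0.070 to 0.56 for Ddx58 for the genotype with irradiation. Differences of pathway genes also turned, for Ifnb1 from values well above 0 and for the others from smaller ones that were not called. For irradiation in WT these were Mavs (0.023), Irf3 (0.20) and Ifnb1 (-0.67) under normexp, Irf3 under quantile normalization (0.013) and in the authors' table (0.0043), Cgas (0.14) and Tbk1 (0.0097) as the mean of all probes, and Mavs (0.014) and Irf3 (0.079) without replicate 1 of every group. Leaving out 1 array gave -0.13 to 0.28 for Atrip, -0.22 to 0.14 for Cgas, -0.020 to 0.16 for Ifnar1, -0.21 to 0.28 for Irf3, -0.30 to 0.19 for Mavs and -0.43 to 0.27 for Tbk1. For the genotype without irradiation they were Cgas (-0.098) and Ifnb1 (-0.43) under normexp, Ripk3 (-0.014) and Ifnar1 (-0.014) under quantile normalization, Atrip (-0.11), Mavs (-0.28), Irf3 (-0.46) and Ifnar1 (-0.29) with the slide term, and Ripk3 (-0.44) without replicate 1 of every group. Leaving out 1 array gave -0.13 to 0.26 for Ifnar1 and -0.21 to 0.23 for Ripk3.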
